A study of Mus musculus with 9 samples.

Results

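I7 is the smallest of the 8 clusters into which the cholinergic interneurons of the adult mouse spinal cord were divided, and it is described here as a group of *Piezo2*- and *Pax2*-expressing interneurons. Its members were the nuclei that carried the name I7 in the deposited annotation, which gave 160 nuclei out of 5375 interneuron nuclei, 16042 cholinergic nuclei with expression values and 34231 labelled nuclei in all. The nuclei came from 8-week-old mice of the strain Chat-IRES-Cre::Sun1-sfGFP with the genotype Chat-iCre:+/wt; SUN-SfGFP:+/wt, in which a GFP fusion protein marks the nuclear membrane of every cell that expresses, or has once expressed, the Cre recombinase driven from the *Chat* gene. The GFP+/DRAQ5+ nuclei of the cervical, thoracic and lumbar/sacral cord were sorted and sequenced as single nuclei, in 3 pools of 4 mice each (replicate 1 with male and female mice, replicate 2 male, replicate 3 female, 12 mice in all), so that each pool gave 3 libraries and the series has 9. All mice carried the same genotype, and the labels name no treatment. Sex went with the pool and the individual mice of a pool cannot be told apart. The 3 libraries of a pool share their mice, so the spread between libraries is not a spread between independent groups of mice.

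Cholinergic interneurons are spinal neurons that make acetylcholine and act within the cord, in contrast to motor neurons, whose axons leave it. Piezo2 is a mechanically activated cation channel known as the sensor of light touch and of body position in peripheral sensory neurons. Pax2 is a transcription factor that marks inhibitory interneurons of the spinal cord from their birth, and many of these neurons release GABA or glycine. A lineage label such as Chat-driven Cre is permanent, so a labelled nucleus need not hold *Chat* transcript at the time of collection.

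The libraries held between 2 and 48 I7 nuclei, and expression was compared in the 6 libraries with at least 10 (cervical replicate 1, thoracic replicates 1 and 2 and the 3 lumbar/sacral libraries). Values are counts as corrected by the authors for sequencing depth, summed over the nuclei of a cluster within a library and scaled to a total of 1000000 (CPM). The I7 sums held 122696 to 224893 corrected counts, so that 1 count was worth 4.45 to 8.15 CPM. The median corrected total was 7059.5 per I7 nucleus, and I7 nuclei had more detected genes than the median interneuron nucleus in each of the 6 libraries, with I7 medians of 2329 to 4095.5. Their median corrected total was also above that of the other interneuron nuclei in each of the 6 libraries. It ranged from 4850 to 11316.5 in I7 and from 4248 to 10550 in the others. The label of 2 libraries did not match their Hox genes, which mark position along the cord. *Hoxc5* stood at 73.3 CPM over all cholinergic nuclei of the library labelled cervical replicate 2 and at 13.9 CPM in the library labelled thoracic replicate 2, whereas the other cervical libraries had 22.5 and 25.4 CPM and the other thoracic libraries 84.2 and 85.3 CPM. *Hoxd11*, a gene of the caudal cord, was at 27.3, 31.0 and 23 CPM in the lumbar/sacral libraries with no count in the other 6, so the comparison of lumbar/sacral with more rostral libraries does not depend on those labels. Of the I7 nuclei 1 carried a barcode that another library also held, and Scrublet called 1 of the 160 a doublet (0.625%, against 1.02% of all cholinergic nuclei).

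Most I7 nuclei held the marker genes *Piezo2* and *Pax2*. The authors named I1 to I7 as clusters with high *Pax2*, and the nuclei had been clustered on the same values. The shares of both genes therefore describe I7 and do not test its name. *Piezo2* was counted (1 corrected count or more) in 157 of 160 I7 nuclei (98.1%), *Pax2* in 146 (91.3%) and both in 143 (89.4%). For comparison, *Piezo2* was counted in 9.86% ± 2.76 (SD, n = 6 libraries) of skeletal and 22.5% ± 6.70 of visceral motor neuron nuclei, and *Pax2* in 2.46% ± 0.678 and 1.36% ± 0.629. Among interneurons *Piezo2* was counted in 87.8% ± 2.66 of I1 and in all I8 nuclei of the 6 libraries. *Piezo2* stood in I7 at 902 CPM in cervical replicate 1, 676 and 612 CPM in thoracic replicates 1 and 2, and 1014, 910 and 1051 CPM in lumbar/sacral replicates 1, 2 and 3. These levels overlapped those of I1, the largest interneuron cluster, which ranged from 615 to 898 CPM, and lay below those of I8, which ranged from 1340 to 1732 CPM. *Piezo2* was therefore not particular to I7 among the interneurons. Levels of *Piezo2* in I2 to I6 were far lower, with cluster means of 2.0 to 44.7 CPM. *Pax2* (chr19:44756045-44837871 in the mouse build mm10) was at 432, 372, 406, 382, 296 and 391 CPM in the same order of libraries. Its mean in I7 was 380 CPM ± 46.1 (SD, n = 6), against 266 ± 20.5 in I1, 189 ± 25.7 in I2 and 5.87 ± 4.26 in I8. *Pax2* thus separated I7 from I8, the cluster with the highest *Piezo2*, far more than from I1. *Reln*, which encodes the secreted glycoprotein Reelin, did so as well, with 34.5 to 111 CPM in I7 and 1602 to 2027 CPM in I8.

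The gene with the largest difference between I7 and the other interneuron clusters was *Pde5a* (chr3:122728947-122859374), which encodes a phosphodiesterase that breaks down cyclic GMP. *Pde5a* was counted in 147 of 160 I7 nuclei and stood at 803, 632, 543, 636, 407 and 440 CPM in the 6 libraries. Every I7 library lay above every library of the other 7 clusters, of which I2 came closest with 107 to 250 CPM, while the means of the remaining clusters were at most 6.40 CPM. The 3 genes *Piezo2*, *Pax2* and *Pde5a* were counted together in 134 I7 nuclei (83.8%). The fitted difference of *Pde5a* from the mean of the other clusters was 4.27 ± 0.10 (SE) on the log2(CPM + 20) scale, on which all log2 differences are given.

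**Figure D1:**
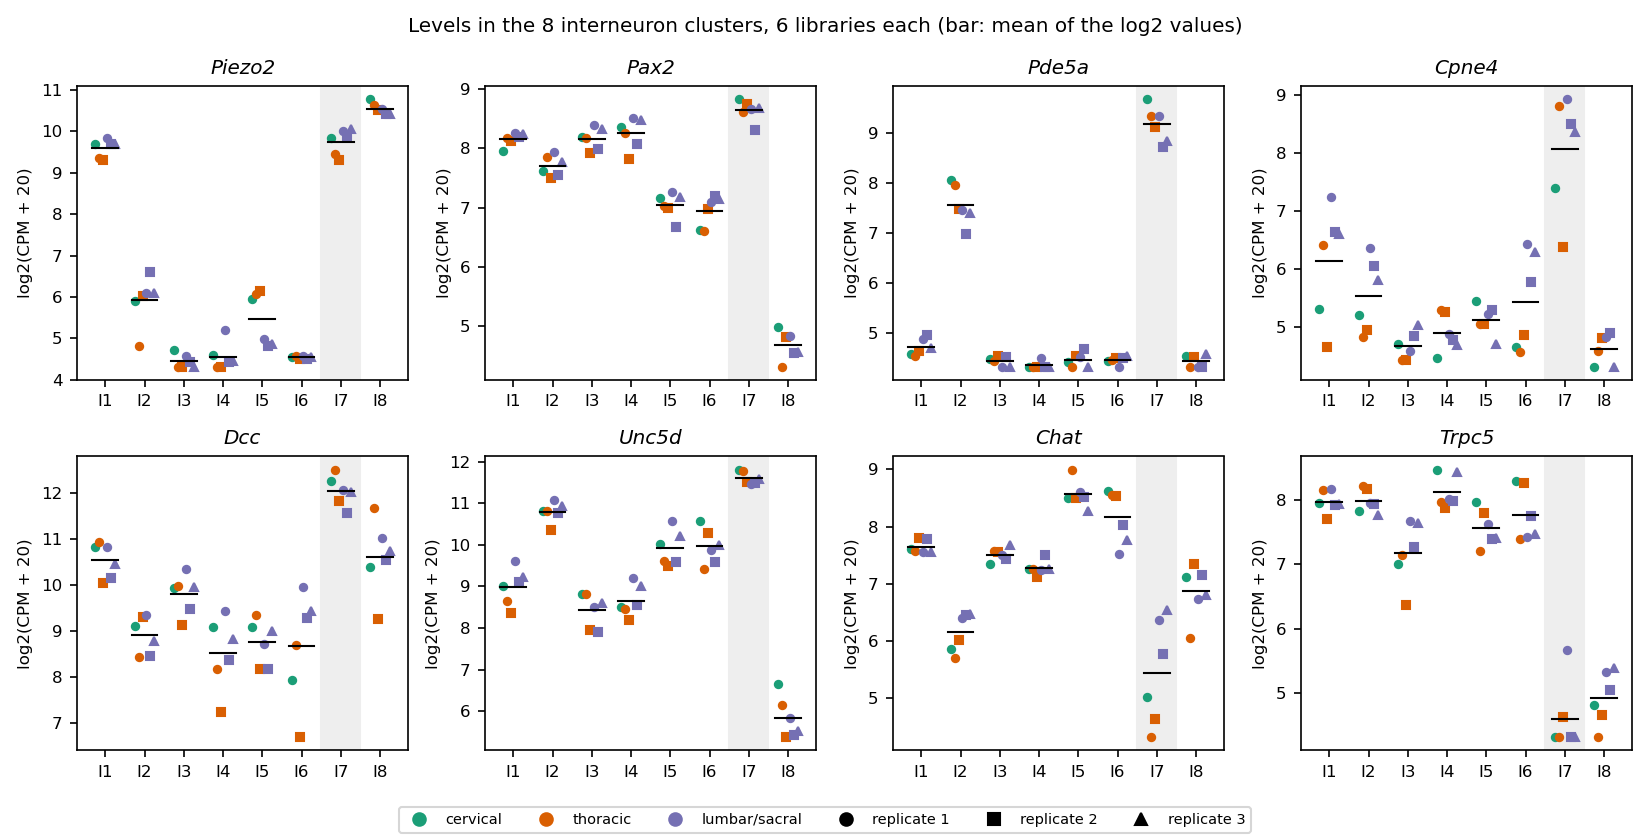
Level of 8 genes in the interneuron clusters I1 to I8, on the log2(CPM + 20) scale, with 1 point for each of 6 libraries per cluster (colour for region, shape for replicate) and a bar for the mean of the log2 values. In the shaded I7 column *Pde5a* and *Unc5d* lay above all other points, *Piezo2* overlapped I1 and lay below I8, *Chat* was lower in the 3 rostral than in the 3 lumbar/sacral libraries, and *Trpc5* was near its floor in I7 and I8.

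I7 nuclei held few transcripts of the cholinergic genes *Chat* and *Slc5a7*. *Chat*, the enzyme that makes acetylcholine, was counted in 27 of 160 I7 nuclei (16.9%), all of which also held *Piezo2*, and *Slc5a7*, the high-affinity choline transporter, in 15 (9.38%). The mean share of nuclei with *Chat* was 15.5% ± 12.8 (SD, n = 6 libraries) in I7 and 57.9% ± 10.8 in the other interneurons of the same libraries, lower in 6 of 6 libraries. *Slc5a7* gave 8.45% ± 4.73 and 54.0% ± 9.12, again lower in 6 of 6. The other genes of the cholinergic list did not all follow. *Ache* was counted in 32.8% ± 16.5 of I7 and 31.5% ± 11.5 of the other interneuron nuclei, higher in 3 of 6 libraries. *Prima1* gave 26.1% ± 14.7 and 28.9% ± 9.59, lower in 4 of 6, and *Slc10a4* 0.347% ± 0.851 and 3.43% ± 2.85, lower in 5 of 6. Skeletal motor neuron nuclei had *Chat* in 87.0% ± 7.35. With every nucleus thinned to 4000 corrected counts, which left out 6 I7 nuclei, *Chat* was counted in 12.9% of I7 and 44.8% of the other interneurons, again lower in 6 of 6 libraries. As a sum, *Chat* was at 31.2 CPM ± 30.9 in I7, with library values of 12.4, 0, 4.90, 62.3, 34.5 and 73.4 CPM, and at 181 CPM ± 16.5 in I1 and 52.7 CPM ± 16.3 in I2. The I7 level was thus below I1 in every library and overlapped I2. The transcript of the GFP construct itself was counted in 5 I7 nuclei (3.13%).

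Genes of inhibitory transmission were counted in most I7 nuclei. At least 1 of *Gad1* and *Gad2*, which make GABA, *Slc32a1*, which loads GABA and glycine into vesicles, and *Slc6a5*, the neuronal glycine transporter, was counted in 119 of 160 nuclei (74.4%). The same share, compared with no test, was 76.8% in I1, 86.2% in I2, 89.6% in I3, 88.3% in I4 and 99.1% in I8, and 15.9% in I5 and 12.7% in I6. *Chat* or *Slc5a7* was counted in 39 (24.4%). Both kinds of gene were counted in 30 nuclei (18.8%), an inhibitory gene alone in 89 (55.6%), a cholinergic gene alone in 9 (5.63%) and neither in 32 (20%). The share with neither was 0.608% to 9.74% in the other 7 clusters. *Slc17a6*, the vesicular glutamate transporter of excitatory spinal interneurons, had a count in 2 I7 nuclei (1.25%).

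The transmitter genes did not all differ in the same direction from the rest of the interneurons. *Slc6a11*, a GABA transporter, was counted in 41.5% ± 15.4 of I7 nuclei and 19.0% ± 4.58 of the others, higher in 6 of 6 libraries, and after thinning in 26.4% and 11.8%, higher in 5 of 6. *Gad2* was lower in 6 of 6 libraries, with 34.8% ± 10.3 and 42.6% ± 6.97, but in 4 of 6 after thinning. *Gad1* was higher in 5 of 6, with 40.4% ± 10.8 and 31.3% ± 8.25, and in 4 of 6 after thinning (26.5% and 20.6%), and *Slc6a5* was lower in 6 of 6, with 22.7% ± 7.94 and 30.9% ± 5.64. Flipping the signs of the library differences (exact, two-sided) cannot give less than p = 0.03125 with 6 libraries, and with Benjamini-Hochberg adjustment over 16 marker and transmitter genes no share passed the threshold of 0.05 (smallest adjusted p = 0.0556, exact test). With libraries of 5 or more I7 nuclei included, which gave 7 libraries, 11 of the 16 genes passed it. These genes were among those on which the nuclei had been clustered, so the shares describe I7 and are not independent of its definition, and free RNA in the droplets can add counts in both groups.

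**Figure D2:**
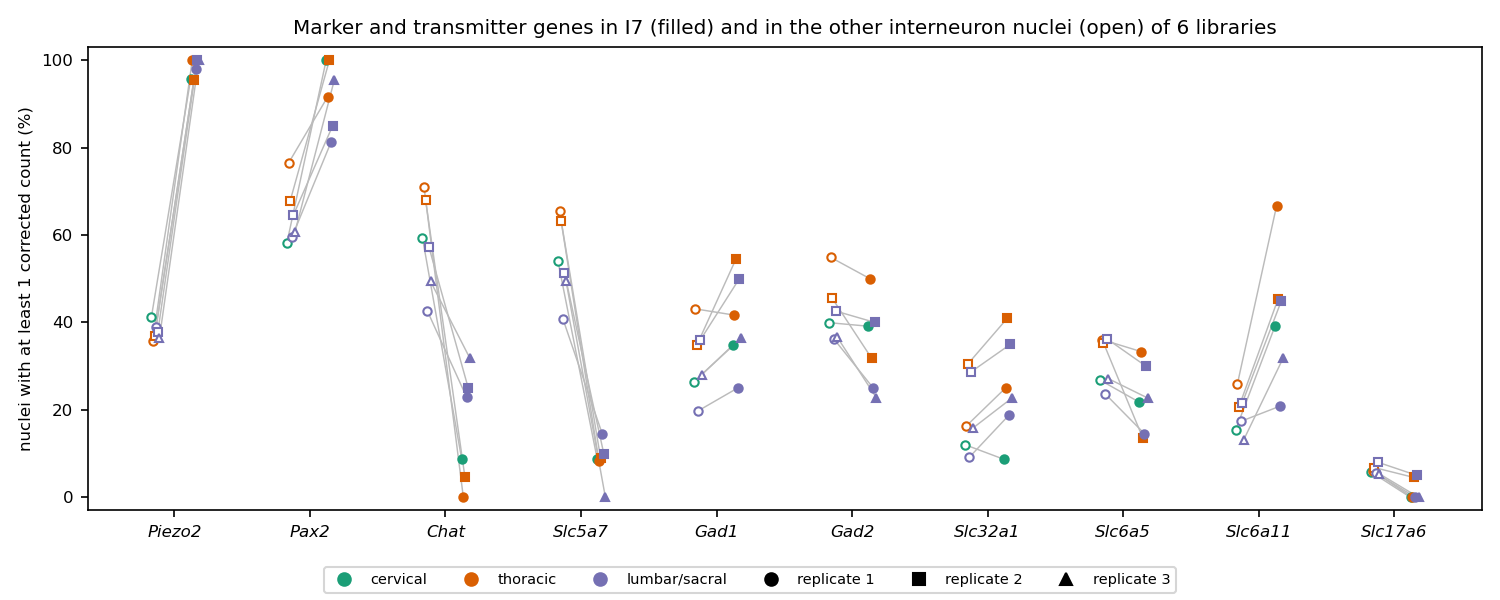
Percentage of nuclei in which each of 10 marker and transmitter genes was counted, in I7 (filled) and in all other interneuron nuclei (open) of the same library, with a line joining the pair for each of 6 libraries. *Piezo2*, *Pax2* and *Slc6a11* were higher in I7 in 6 of 6 libraries and *Chat* and *Slc5a7* lower in 6 of 6, with the 3 lumbar/sacral libraries giving the highest I7 shares of *Chat*.

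I1 and I2 were the clusters most like I7. Over 8938 genes, Pearson's r between the mean log2 profiles was 0.946 for I7 and I1 and 0.937 for I7 and I2, then 0.896 for I4, 0.880 for I3, 0.874 for I6, 0.835 for I5 and 0.794 for I8, a description across genes, which are not independent and share their libraries. I8, the other cluster with high *Piezo2*, had the lowest value. Among the 10 nearest neighbours of an I7 nucleus within its library, 86.4% ± 6.46 (SD, n = 6 libraries) were themselves I7, which made up 3.28% of the interneuron nuclei, 7.17% were I2 and 6.40% I1. Nuclei of I3, I4, I5, I6 and I8 contributed none.

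Against the mean of the other 7 clusters, 181 of 8938 genes (2.03%) were higher in I7 and 125 (1.4%) lower (3.42% either way), counting those with an adjusted p below 0.05 in limma and a difference of at least 1 on the log2 scale. Against I1, 120 genes (1.34%) were higher and 114 (1.28%) lower (2.62% either way), and against I2, 151 (1.69%) and 154 (1.72%), or 3.41% either way. Against I8 the counts were 445 (4.98%) and 334 (3.74%), or 8.72% either way. Because the clusters were drawn from the same nuclei and genes, these calls describe how I7 was separated and are no independent test of it, and no p is given for single genes in them. At a pseudocount of 5 the counts against the other clusters were 310 and 294. Against the sum of all other interneuron nuclei, in which large clusters weigh more, 84 genes were higher and 167 lower, so that the balance of higher and lower calls depends on that choice.

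*Unc5d* and *Dcc*, both netrin receptors, were among the 15 genes with the largest positive differences of I7 from the other clusters. *Unc5d* (chr8:28646717-29219636), whose protein mediates repulsion, was at 3551, 3455, 2903, 2815, 2861 and 3064 CPM in the 6 libraries, and no library of another cluster exceeded 2157 CPM. *Dcc*, whose protein mediates attraction of axons, ranged from 3005 to 5751 CPM in I7, with means of 1501 CPM in I1 and 476 CPM in I2. A single I8 library reached 3210 CPM of *Dcc*, so that these ranges touched. *Nrp1*, a co-receptor for semaphorins and vascular growth factors, was at 420.5 to 595 CPM in I7 and at 304 to 459 CPM in I1, and *Vegfc*, which encodes such a growth factor, was at 259 to 426 CPM in I7 and at most 174 CPM in any library of the other clusters. *Nell1*, a secreted protein with EGF-like repeats, was at 1464, 1464, 999, 760, 655 and 823 CPM. Its mean was 155 CPM in I1 and 152 CPM in I2, while I6 overlapped I7, with a mean of 822 CPM.

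*Cpne4* (chr9:104547286-105034544), a calcium-dependent membrane-binding protein of the copine family, was the most variable of the leading genes. It was at 148 CPM in cervical replicate 1, 431 and 63.6 CPM in thoracic replicates 1 and 2, and 467, 345 and 310 CPM in the lumbar/sacral libraries. The difference from the other clusters was 2.86 ± 0.21 (SE), but the library labelled thoracic replicate 2 lay within the range of I1, which reached 131 CPM. The other genes among the 15 with the largest positive differences were *Ltbp1* (2.89), which binds latent TGF-beta, *Adamtsl1* (2.83), *Gpc3* (2.78), a glypican of the cell surface, *Csgalnact1* (2.59), an enzyme of chondroitin sulfate synthesis, *Unc13c* (2.54), a synaptic vesicle priming protein, *Col8a1* (2.51), a short-chain collagen, and *Fras1* (2.43), an extracellular matrix protein. Of all genes tested, 24 (0.269%) had every I7 library above every library of the other clusters. Among these were *Pde5a*, *Vegfc*, *Unc5d*, *Dab1*, *Galr1*, *Pde9a* and *Kcng1*, the last a silent subunit that modifies voltage-gated potassium channels.

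Other genes were near 0 in I7. *Trpc5* (chrX:144381671-144688180), a calcium-permeable cation channel, had no count in 4 of the 6 I7 libraries, where 3 counts would have been 18.5 to 24.5 CPM, and stood at 4.90 CPM in the library labelled thoracic replicate 2 and 31.1 CPM in lumbar/sacral replicate 1. The means of I1 and I2 were 232 and 233 CPM, and among the other clusters only I8 was as low, at 11.5 CPM ± 8.57. *Rtl4* (chrX:144688907-145122411), a retrotransposon-derived gene next to *Trpc5* on the opposite strand, behaved in the same way, with 0 to 65.2 CPM in I7, a mean of 18.3 CPM in I8 and means of 297 to 573 CPM elsewhere. *Cntn5*, a contactin adhesion molecule, was at 469, 275, 338, 454, 172 and 139 CPM in I7, and every library of the other clusters was at 558 CPM or more. *Erbb4*, a neuregulin receptor, ranged from 0 to 130 CPM in I7 with a difference of -3.70 ± 0.24 (SE), though I1, at 7.4 to 143 CPM, overlapped it. Other genes among the 10 with the largest negative differences were *Slc35f4* (-2.87), *Zfpm2* (-2.87), a cofactor of GATA factors, *Epha5* (-2.81), an ephrin receptor, *Slit3* (-2.60), a repulsive guidance cue, and *Zfhx3* (-2.44). All I7 libraries lay below all others for 7 genes (0.0783%), among them *Cntn5* and *Chl1*.

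Because I1 and I2 were the nearest clusters, the genes that set I7 apart from both were counted. In I7, 37 genes (0.414% of those tested) were higher than in I1 and in I2, which is 30.8% of the genes higher than in I1 and 24.5% of those higher than in I2. A further 35 (0.392%) were lower than in both. Both comparisons use the same I7 sums, so the overlap is not a result of its own. Ranked by the smaller of both differences, *Nell1* led the higher genes, with 2.59 against I1 and 2.72 against I2. *Ldb2* (chr5:44472132-44799680), a scaffold for LIM-domain transcription factors, followed with 4.03 and 2.07. It was at 766, 483, 622, 285, 551 and 318 CPM in I7 and at 2.7 to 17.2 CPM in I1, with 60.9 to 238 CPM in I2. Its level was higher still in I5, at a mean of 1105 CPM. *Alk*, a receptor tyrosine kinase, gave 1.68 and 2.19, *Htr4*, a serotonin receptor that raises cyclic AMP, 1.54 and 1.44, *Htr2c*, a serotonin receptor coupled to phospholipase C, 1.14 and 2.61, and *Reln* 1.32 and 1.60. Of the 37 genes, 27 were also higher than in I8 and 26 higher than in the mean of all other clusters.

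The 35 genes lower in I7 than in I1 and I2 were led by *Trpc5* (-3.37 against both), *Rtl4* (-3.33 and -3.30) and *Hs3st4* (-2.15 and -3.79), an enzyme that modifies heparan sulfate. *Chrm3*, a muscarinic acetylcholine receptor, was also among them (-1.97 and -1.90), as were the potassium channel subunits *Kcnh5* (-1.82 and -1.97) and *Kcnq3* (-1.18 and -1.20) and the kappa opioid receptor *Oprk1* (-1.16 and -1.32). Only 11 of the 35 were also lower than in I8.

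**Figure D3:**
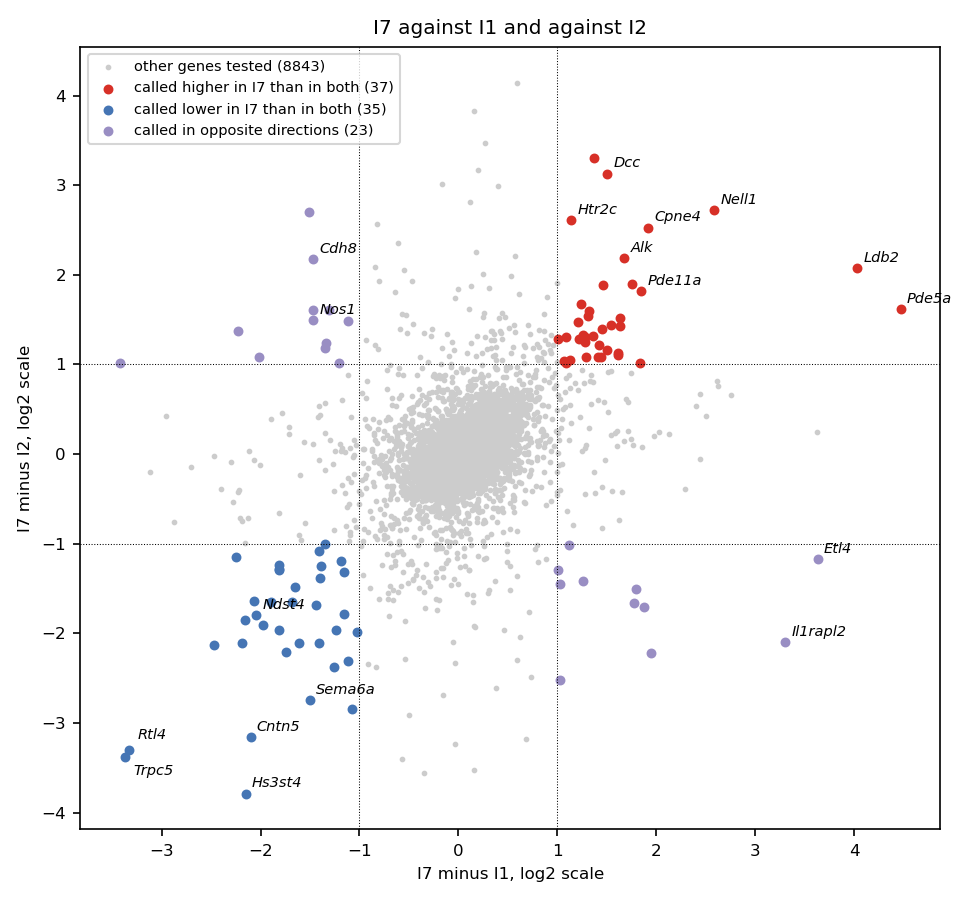
Difference of I7 from I1 (horizontal) and from I2 (vertical) for 8938 genes, both as log2 of CPM + 20, with dotted lines at the threshold of 1 in either direction. The 37 genes called higher in I7 than in both lie at the upper right and the 35 called lower than in both at the lower left, and 23 genes were called in opposite directions.

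I7 shared some genes with only one of these neighbours. *Piezo2* was 0.16 ± 0.19 (SE) higher than in I1 and 3.83 ± 0.19 higher than in I2, and *Gpc3* differed in the same way (0.59 and 4.15), as did *Dach1* (0.26 and 3.47), a transcriptional regulator, and the muscarinic receptor *Chrm2* (0.19 and 3.17). *Csgalnact1* was higher than in I1 by 3.62 and than in I2 by 0.24. *Ebf1*, a transcription factor of developing neurons, was lower than in I1 by a difference of -3.43 ± 0.30, since I1 held 3541 to 4007 CPM and I7 66.9 to 903 CPM. *Stac* (-3.11) and *Kcnip4* (-2.95), a regulator of A-type potassium channels, were also lower than in I1. Against I2 the largest negative differences after *Hs3st4* were those of *Slc4a4* (-3.55), a bicarbonate cotransporter, *Chst9* (-3.53) and *Khdrbs2* (-3.40), an RNA-binding protein. *Etl4* (3.63 against I1 and -1.17 against I2) and *Il1rapl2* (3.30 and -2.09) were higher in I7 than in I1 and lower than in I2, and 23 genes in all were called in opposite directions against these clusters.

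The difference between I7 and I8 was the widest of all. *Gpc5*, a glypican, was at a mean of 6020 CPM ± 1152 (SD, n = 6) in I7 and 63.3 ± 56.1 in I8 (log2 difference 6.46), *Unc5d* at 3108 ± 319 and 39.8 ± 22.9 (5.78) and *Unc13c* at 1308 ± 141 and 13.5 ± 13.7 (5.40). *Dach1* differed by 5.13. In the other direction, the transcription factor *Zfhx3* was at 24.6 CPM ± 31.8 in I7 and 1803 ± 124 in I8 (-5.59), *Meis2*, a homeodomain factor, at 10.0 ± 11.5 and 1239 ± 108 (-5.47), *Eps8*, an actin regulator, at 7.44 ± 6.95 and 904 ± 126 (-5.10) and *Erbb4* at 50.6 ± 45.2 and 1840 ± 589 (-4.91).

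Gene groups were counted against the background of 2.03% higher and 1.4% lower and the median log2 difference of -0.01 over all 8938 genes. Several calls were lost against the sum of all other interneuron nuclei, where the differences of *Slc6a11*, *Pde1c*, *Prlr*, *Chrna7*, *Chrm2*, *Glra3*, *Grik4*, *Grm5*, *Grm7*, *Grm8*, *Kcnb2*, *Kcnd2*, *Kcnh1*, *Kcnh7*, *Cdh4*, *Cdh7* and *Unc5c* were below 1. The same held for *Pax2*, *Unc13c*, *Ldb2*, *Etl4*, *Dach1* and *Il1rapl2* among the other genes named. Of 4 cholinergic genes tested, 2 were lower in I7 than in the other clusters, *Chat* (-2.01) and *Slc5a7* (-2.13), and none was higher, with a list median of -1.20. Of 7 genes of GABA and glycine transmission, 2 were higher, among them *Slc6a11* (1.08), 5 were not called, and the median was 0.50. Against I1 none of these 7 was called, and against I2 *Gad2* was lower (-1.48). Of 6 markers of dorsal inhibitory interneurons none was called (median 0.44), although 3 were lower than in I1, namely *Pax8* (-1.18), *Nos1* (-1.47) and *Cdh3* (-1.40). *Nos1*, the neuronal nitric oxide synthase, was higher than in I2 (1.49).

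The phosphodiesterases and the mechanosensitive channels were of interest because *Pde5a* and *Piezo2* belong to them. Of 17 cyclic nucleotide phosphodiesterases tested, 3 were higher in I7, *Pde5a*, *Pde1c* (1.72) and *Pde9a* (1.53), which like *Pde5a* prefers cyclic GMP, 1 was lower, *Pde1a* (-1.35), and 13 were not called, with a median of -0.26. *Pde1c* was not higher than in the clusters most like I7, at -0.16 against I1 (not called) and -1.05 against I2 (called lower). *Pde11a* was higher than in I1 (1.85) and I2 (1.82) and lower than in I8 (-3.68). Of 6 further genes of nitric oxide and cyclic GMP signalling, 1 was lower, *Prkg1* (-1.91), the cyclic GMP-dependent kinase, and the median was 0.40. Of 14 mechanosensitive channels and partners, *Piezo2* and *Asic2* (1.65), an acid-sensing channel subunit, were higher, *Trpc5* was lower and 11 were not called, with a median of 0.16. Against I1 none of the 14 was called higher, with *Piezo2* at 0.16 and *Asic2* at 0.58, and against I2 *Asic2* (0.89) was not called. Against I1, 3 of the 14 were lower, *Trpc5*, *Pcdh15* (-1.20) and *Cdh23* (-1.72), the last pair being the tip-link cadherins of hair cells.

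Receptors for transmitters differed in both directions. Of 24 glutamate receptor genes, 6 were higher and none lower than in the other clusters (median 0.46), namely *Grm7* (2.43), *Grm8* (2.36), *Grm5* (1.69), *Grik4* (1.54), *Gria3* (1.41) and *Grid1* (1.27). *Grm7* and *Grm8*, presynaptic inhibitory receptors, did not differ by the threshold from I1 (-0.17 and -0.78) or I2 (0.17 and -0.05), and *Gria3* and *Grid1* were higher than in I1. Of 17 GABA and glycine receptor genes, *Glra3* was higher (1.44) and *Gabra2* (-1.75), *Gabrg3* (-1.56) and *Glra2* (-1.11) were lower, with 13 not called and a median of -0.22. Of 4 acetylcholine receptor genes, the nicotinic subunit *Chrna7* (1.53) and the muscarinic receptor *Chrm2* (1.28) were higher, and the median was 0.99. Of 9 monoamine receptors, *Htr2c* (1.94) and *Htr4* (1.43) were higher and *Htr7* (-1.83) lower, with 6 not called and a median of -0.51.

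Among 4 neuropeptide genes tested, *Penk*, the precursor of enkephalins, was higher (1.46), with 49.4, 81.7, 191, 40.0, 145 and 73.4 CPM in the 6 libraries, a range that overlapped I1 at 27.4 to 153 CPM. The other 3 were not called, and the list median was -0.26. Of 17 peptide and hormone receptors, *Galr1* (2.00), *Prlr* (1.58) and the mu opioid receptor *Oprm1* (1.51) were higher, and *Hcrtr2* (-1.66), *Oprk1* (-1.40) and *Tacr1* (-1.22), the receptor for substance P, were lower, with a median of 0.16. *Galr1*, a galanin receptor, had all I7 libraries above all others. Against I1 none of the 17 was called higher (*Galr1* 0.81, *Prlr* -0.55 and *Oprm1* 0.34). Only *Oprk1* was called lower than in I1, with *Hcrtr2* at -0.30 and *Tacr1* at -0.16. Against I2, *Galr1* (1.38) and *Prlr* (2.05) were called higher and *Oprm1* (0.59) was not called. *Hcrtr2* (-1.43), *Tacr1* (-2.69) and *Oprk1* were called lower than in I2.

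Of 33 voltage-gated potassium channel genes, 4 were higher, *Kcnb2* (1.46), *Kcnh7* (1.36), *Kcnd2* (1.15) and *Kcnh1*, 2 were lower, *Kcnip1* (-1.36) and *Kcnab1* (-1.29), and 27 were not called (median 0.07). *Kcnh1* lay just above the threshold of 1 and lost its call in 8 of 21 alternatives. None of the 4 higher genes was called against I1 (*Kcnb2* -0.03, *Kcnh7* -0.45, *Kcnd2* 0.27 and *Kcnh1* 0.24). Against I2, *Kcnh7* (1.45) and *Kcnd2* (1.31) were called higher and *Kcnb2* and *Kcnh1* were not called. Of the 2 lower genes, neither was called against I1 (*Kcnip1* -0.94 and *Kcnab1* -0.51). Against I2, *Kcnab1* (-1.22) was called lower and *Kcnip1* (-0.37) was not called. Of 25 calcium, sodium and HCN channel genes, *Cacna2d1* was lower (-1.69) and 24 were not called (median 0.03). *Cacna2d1* was not called against I1 (-0.80), I2 (-0.61) or I8 (-0.16). Of 47 axon guidance genes, 6 were higher, *Nrp1* (3.12), *Unc5d* (2.67), *Dcc* (2.64), *Sema3f* (1.36), *Ntn1* (1.35) and *Unc5c* (1.25), 7 were lower, *Epha5*, *Slit3*, *Sema6a* (-2.13), *Robo1* (-1.93), *Epha6* (-1.81), *Sema5a* (-1.15) and *Nrp2* (-1.03), and 34 were not called (median -0.05). *Nrp2* lost its call in 5 of 21 alternatives, and *Unc5c* did not differ by the threshold from I1 (0.25) or I2 (0.06). Of 14 cadherins, *Cdh4* (2.15), *Cdh13* (2.07) and *Cdh7* (1.12) were higher and *Cdh12* (-1.20), *Cdh20* (-1.17) and *Cdh8* (-1.13) lower, with a median of -0.17.

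Of 10 transcription factors that mark the birth time of spinal neurons, 3 were lower, *Zfhx3* (-2.44), *Nfib* (-1.60) and *Zfhx4* (-1.40), and none was higher (median -0.59). None of the 10 was called against I1. Of 4 genes of Reelin signalling, *Dab1*, its intracellular adaptor, was higher (1.99, median of the list 0.44), and of 9 copines and ADAMTS-like genes *Cpne4* and *Adamtsl1* were (median 0.00). Of 10 Hox genes tested none was called (median 0.51), nor was the 1 vesicular glutamate transporter tested (-0.46).

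Markers of other cells that the sort could hold were low in I7. The summed level of 6 oligodendrocyte genes was 29.7 to 67.9 CPM in I7 and 20.3 to 72.7 CPM in the other clusters, and that of 4 microglial genes in the matrix 30.9 to 89.7 and 10.4 to 154 CPM. The 5 astrocyte genes summed to 41.4 to 106 CPM in I7 and 6.70 to 113 CPM elsewhere, with 3 of the 5 at 0 in every I7 library. The 7 motor neuron genes summed to 18.5 to 84.5 CPM in I7 and 7.70 to 116 CPM elsewhere, with 2 of the 7 at 0. The 4 genes of cerebrospinal fluid-contacting neurons summed to 6.18 to 65.2 CPM and 2.64 to 49.2 CPM, the 3 vascular genes to 0 to 14.7 CPM and 0 to 14.5 CPM and 12 immediate early genes to 55.1 to 134 CPM and 40.5 to 256 CPM. No tested member of these lists was called between I7 and the other clusters, and none of the ranges stood apart from those of the other clusters. Most members were too low to be tested and could not be called. Tested were 2 oligodendrocyte, 2 microglial, 2 motor neuron and 2 immediate early genes, 1 astrocyte gene, 1 gene of cerebrospinal fluid-contacting neurons and 0 vascular genes.

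The share of I7 among interneuron nuclei was compared between regions. The authors processed the regions separately and integrated them before they named the clusters, so these shares also depend on that step. It was 2.99% in cervical replicate 1 (95% Wilson interval 2.00 to 4.45), 1.24% in the library labelled cervical replicate 2 (0.341 to 4.42) and 1.73% in cervical replicate 3 (0.880 to 3.38). In the thoracic libraries it was 2.92% (1.68 to 5.03), 3.36% (2.23 to 5.03) and 0.709% (0.241 to 2.06), and in the lumbar/sacral libraries 4.35% (3.30 to 5.72), 2.79% (1.81 to 4.27) and 3.26% (2.17 to 4.89). The intervals cover counting error only. The means were 1.99% ± 0.902 (SD, n = 3) for cervical, 2.33% ± 1.42 for thoracic and 3.47% ± 0.801 for lumbar/sacral cord. These means did not differ beyond the spread between libraries (exact permutation test over 1680 assignments of the regions, on the sum of squares between regions, p = 0.339, with 0.00357 the smallest p possible). Permuting within replicates gave p = 0.333 (exact, 216 assignments), and leaving out both libraries whose Hox genes went against their labels gave p = 0.314 (exact permutation test). Taken of all cholinergic nuclei, the means were 0.548%, 0.742% and 1.41%, with p = 0.125 in the same exact permutation test. Over all regions, I7 made up 3.64% of the interneuron nuclei of replicate 1, 2.87% of replicate 2 and 2.12% of replicate 3.

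**Figure D4:**
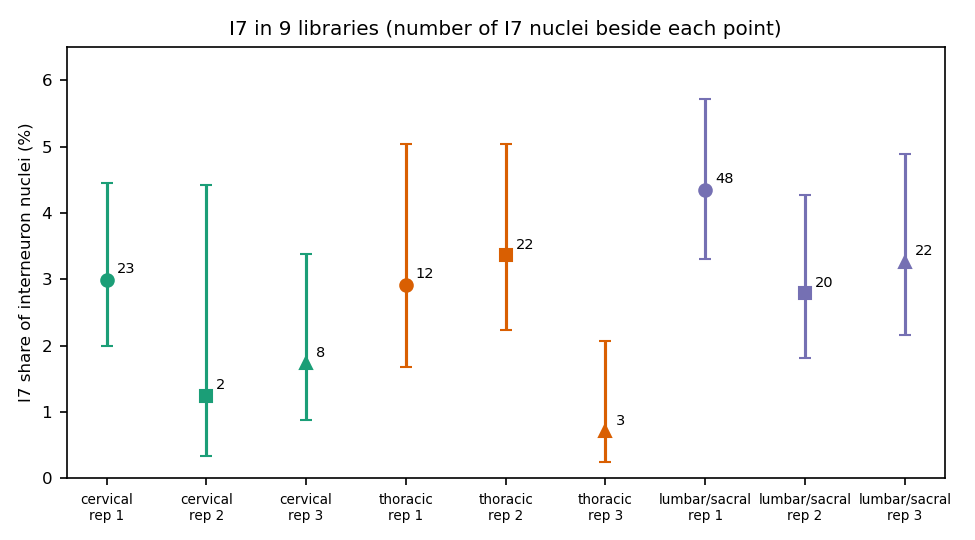
Share of I7 among the interneuron nuclei of each of the 9 libraries, in percent, with the 95% Wilson interval as the bar and the number of I7 nuclei beside each point. The 3 lumbar/sacral libraries gave 2.79% to 4.35% and the other 6 libraries 0.709% to 3.36%, with intervals that overlapped.

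Within I7 the lumbar/sacral libraries were compared with the 3 rostral ones (cervical replicate 1 and thoracic replicates 1 and 2). Since the regions had been integrated to define I7, this contrast is not wholly independent of the clustering. Of 7151 genes tested, 2 were higher in lumbar/sacral I7 and 2 lower in limma with an adjusted p below 0.05 (0.0559% of those tested), and 375 had an unadjusted p under 0.05. With the replicate as a block, which pairs libraries of the same mice, the counts were 15 and 17 (0.447%), and the 4 genes were among them. Lumbar/sacral replicate 3 had no rostral partner among these libraries, so it did not add to the differences fitted with the block. Of the 17 lower genes, 5 were mitochondrial transcripts, which are not made in the nucleus. Their part in the result was not tested. The share of I1 among the nearest neighbours of I7 nuclei was also higher in the lumbar/sacral libraries, and its part was not tested either.

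*Ebf1* (chr11:44617317-45008091) was the only one of the 4 that also passed at a pseudocount of 5. It was at 259, 66.9 and 147 CPM in the rostral libraries and at 903, 710 and 725 CPM in the lumbar/sacral libraries, without overlap, a log2 difference of 2.32 ± 0.30 (SE, limma, Benjamini-Hochberg adjusted p = 0.00125). The call was kept without each library in turn, with differences of 1.88 to 2.72. The same contrast gave 2.21 in I2, -0.01 in I1 and 1.16 in I4, with no test. *Ndst4*, an enzyme of heparan sulfate synthesis, was at 43.2, 0 and 34.3 CPM in the rostral and 165, 138 and 196 CPM in the lumbar/sacral libraries (2.17 ± 0.36, limma adjusted p = 0.0194). Without lumbar/sacral replicate 3 its adjusted p in limma was 0.0848, and at a pseudocount of 5 it was 0.0998. *Col25a1*, a membrane-bound collagen, was at 161, 119 and 152 CPM in the rostral and 26.7, 27.6 and 48.9 CPM in the lumbar/sacral libraries (-1.61 ± 0.28, limma adjusted p = 0.0240), and its limma adjusted p was 0.209 without cervical replicate 1, 0.0507 without thoracic replicate 2 and 0.0615 without lumbar/sacral replicate 2. *Thsd7b*, which holds thrombospondin repeats, was at 371, 297 and 269 CPM against 111, 117 and 139 CPM (-1.22 ± 0.22, limma adjusted p = 0.0439), and it stayed past the threshold when thoracic replicate 2 was left out but not when any of the other 5 libraries was (limma adjusted p = 0.0522 to 0.259). In the other clusters the same contrast of *Col25a1* ran from -1.17 in I6 to 1.86 in I8, with -0.02 in I1 and -0.16 in I2, and that of *Thsd7b* from -1.34 in I2 to 0.58 in I6, with -0.64 in I1, all with no test.

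*Chat* within I7 was counted in 2 of 23, 0 of 12 (which allows a share of up to 25%) and 1 of 22 nuclei of the rostral libraries and in 11 of 48, 5 of 20 and 7 of 22 nuclei of the lumbar/sacral libraries. The CPM values did not overlap between the regions, but the difference of 1.57 ± 0.36 (SE) did not pass adjustment over all genes (limma adjusted p = 0.119, 0.101 with the replicate as a block). I2, the other cluster with low *Chat*, showed the same order without overlap, with 38.3, 32.1 and 44.5 CPM in the rostral and 64.5, 67.9 and 68.8 CPM in the lumbar/sacral libraries. I6 showed the opposite order, with 353 to 373 CPM and 164 to 242 CPM, and in I1, I3, I4, I5 and I8 the ranges overlapped. The median corrected total per nucleus was 7087 to 11077 in the rostral and 4712 to 7175 in the lumbar/sacral libraries. *Piezo2* (0.45 ± 0.21), *Pax2* (-0.18 ± 0.21) and *Pde5a* (-0.41 ± 0.22) were not called between the regions (limma adjusted p = 0.913, 0.973 and 0.918). Of 28 Hox genes in the matrix 8 were tested in I7 and none was called, but with the replicate as a block *Hoxc5* was (log2 difference 1.61, limma adjusted p = 0.00692), a difference that ran from 1.19 to 1.64 in the other 7 clusters without the block. *Cpne4* was also called with the block only (1.38, limma adjusted p = 0.00801). Across all 8938 genes, no gene passed the limma test of whether the difference of I7 from the other clusters changed between lumbar/sacral and rostral libraries, with 510 at an unadjusted p under 0.05.

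**Figure D5:**
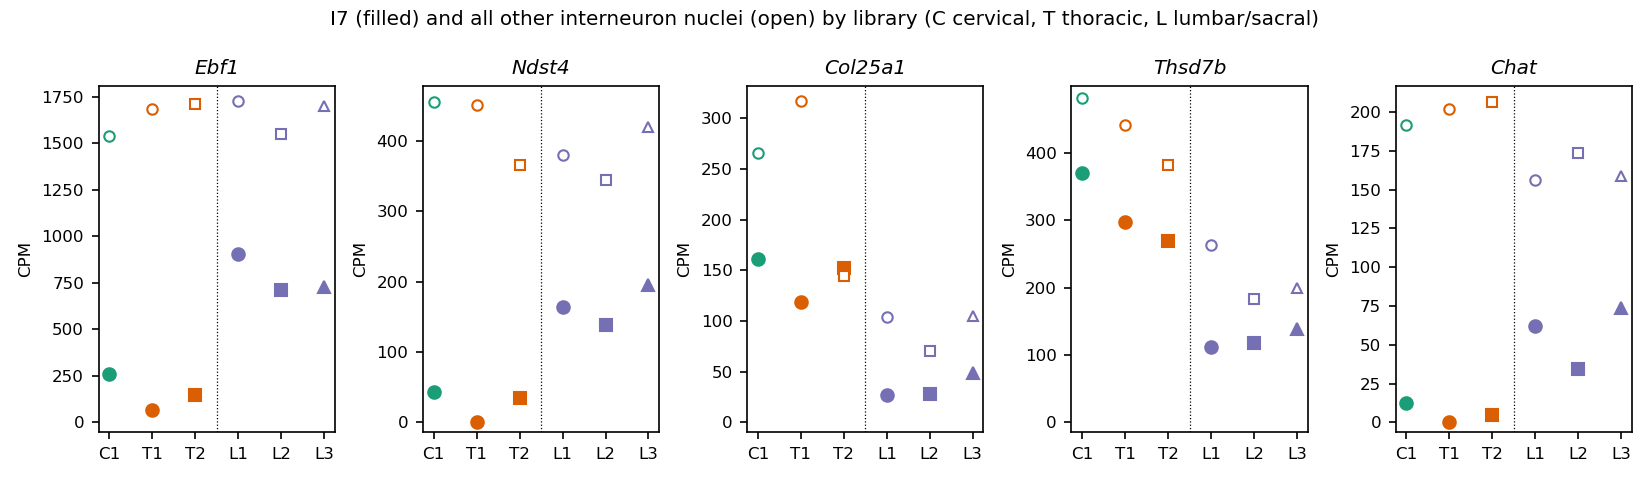
CPM of 5 genes in I7 (filled) and in all other interneuron nuclei (open) of 6 libraries, the 3 rostral libraries to the left of the dotted line and the 3 lumbar/sacral libraries to the right. In I7 *Ebf1*, *Ndst4* and *Chat* were higher in every lumbar/sacral than in every rostral library, the last without passing the test, and *Col25a1* and *Thsd7b* were lower in every lumbar/sacral library.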

How the data were processed

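Single nuclei of 9 libraries were sequenced with the 10x 3′ kit. Per the methods and the submitters' processing notes, reads were aligned to mm10 with Cell Ranger 3.1.0 against a pre-mRNA reference, and nuclei were filtered, normalized with SCTransform and clustered in Seurat. The deposited values of the matrix of 16042 nuclei and 21457 features are whole numbers, a score here because SCTransform has corrected them for depth. Corrected totals are not library depths, count models were not run, and the limma test replaced them. Cluster names, the region and the replicate came from the authors' annotation and the labels.

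The corrected counts were summed per cluster and library where a sum held at least 10 nuclei, scaled to CPM and transformed to log2(CPM + 20). Genes with at least 20 CPM in 6 of 48 sums (3 sums for the regional comparison) were fitted in limma 3.58.1 (R 4.3.3), with the library as a term for comparisons of clusters and the Benjamini-Hochberg adjustment over all genes tested. A call needed an adjusted p below 0.05, and between clusters also a log2 difference of at least 1. The fit was tested on simulated sums: for I7 against the other clusters it recovered 83% of 200 changed genes at a log2 difference of 1.5, and for the regional layout 68.5%, where 7.43% of calls were false. The draws used the same dispersion for all genes and no library or pool effect, and only genes well above the filter were changed. These rates hold for that setting and not for the data. Shares were compared by exact sign-flip and permutation tests over libraries (scipy 1.17.1). Neighbours were found on 20 principal components of 2000 variable genes. Scrublet ran in scanpy 1.11.5, and nothing was removed for the reported values. Libraries with the same replicate number come from the same mice. For 4 such pairs, deviations in I7 were taken from the mean of the lumbar/sacral or rostral libraries and correlated. Pairs of a rostral and a lumbar/sacral library gave r of 0.150 to 0.242. Cervical and thoracic replicate 1 gave -0.401, but both deviate from the same rostral mean, which by itself pulls r towards negative values. P-values measure the spread between libraries, which come from only 3 pools of mice. Libraries of the same pool were treated as separate units in the tests, except where the replicate was a block. Gene positions are those of GENCODE vM21.

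The 29 gene lists and the members were chosen with earlier results of these data known. Named genes are *Piezo2*, *Pax2*, called list members, the 15 highest and 10 lowest differences from the other clusters among genes that moved the same way in every library, and the 5 highest and 5 lowest against I1, I2 and I8, gene models without a symbol left out. Some genes that this rule names are not reported here. The genes of the comparison with both I1 and I2, of the ranges without overlap and of the regional comparison were named after their values were seen. The alternatives were another pseudocount, filter, scaling and minimum of nuclei, the replicate block, sample weights, doublets removed, thinned nuclei, a sum over all other interneuron nuclei and each replicate or library left out.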

Additional observations from a re-analysis of the deposited data

Results flagged for a closer look

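Among 58 values of I7 over the 6 libraries, 1 library stood apart from the others in 5, and chance marks about 1 in 20 groups. *Trpc5* (31.1 CPM), *Hs3st4* (53.4 CPM) and *Khdrbs2* (200.1 CPM) were each highest in lumbar/sacral replicate 1, the library with the most I7 nuclei and the lowest median total per nucleus. The share of I7 nuclei with *Slc10a4*, a transporter of cholinergic neurons, was 2.08% there, from 1 nucleus. The share with *Slc17a8*, a vesicular glutamate transporter, was 4.55% in the library labelled thoracic replicate 2, also from 1 nucleus.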

How the results depend on the processing

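With a pseudocount of 5 CPM in place of 20, I7 had 310 higher and 294 lower genes against the other clusters, 229 and 202 against I1, 270 and 256 against I2, and 631 and 623 against I8. Against the sum of all other interneuron nuclei in place of the mean of clusters, 84 genes were higher and 167 lower, so that 33.5% of calls were higher instead of 59.2%. With the median of ratios as scaling, 42.4% of calls against I1 were higher instead of 51.3%. With the replicate block in place of the library term the counts were the same, 181 and 125 against the other clusters. Leaving out each library or replicate gave 175 to 188 higher and 117 to 129 lower genes there, 113 to 128 and 105 to 121 against I1, 145 to 157 and 146 to 160 against I2, and 436 to 450 and 286 to 319 against I8. Of 2703 values of 96 named genes under these alternatives, 48 lost (25 of them against the sum of all other interneuron nuclei) and 4 gained their call and 1 changed sign, *Chst9* against the other clusters, at 0.10 with a minimum of 5 nuclei, where it was not called. Including libraries with 5 or more I7 nuclei, 11 shares passed the threshold in place of 0. The difference in share changed sign for *Abat* at 2 counts or more (-1.86 percentage points), and without each replicate in turn it ran from -2.43 to 9.80 for *Abat*, from -5.71 to 2.85 for *Prima1* and from -4.30 to 4.60 for *Ache*, none of which was called. Within I7, the replicate block gave 15 genes higher and 17 lower in lumbar/sacral libraries, a pseudocount of 5 gave 1 and 0, and leaving out each library gave 1 to 12 (12 without lumbar/sacral replicate 1) and 0 to 3 (0 without cervical replicate 1). The regional share stayed above the threshold without each replicate, with p of 0.267 to 0.6 in the exact permutation test. The cause of these changes was not tested. Depth limits I7 to genes above 13.3 to 24.5 CPM, the level of 3 counts, and 3 libraries held too few I7 nuclei for any sum.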

Other observations

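An alternative comparison, chosen after the data were seen, set the share of I7 among interneurons in the 3 lumbar/sacral libraries (mean 3.47%) against the other 6 (2.16% ± 1.08, SD). The difference of 1.31 percentage points gave p = 0.131 (exact permutation test over 84 groupings). Within I7 *Hoxc5*, at 9.79 CPM, was lowest in the library labelled thoracic replicate 2, as it was over all cholinergic nuclei.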
